A study of Mus musculus with 4 samples.

Results

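The ionotropic glutamate receptor genes Gria1, Gria2, Gria3, Gria4, Grin1, Grik1 and Grik2 and the metabotropic receptor gene Grm5 were followed through all of their exon trios in 4 RNAseq libraries of mouse brain. Each trio consists of 1 middle exon and the exons next to it, and the tables list 228333 trios. A trio belonged to a receptor gene when its chromosome, strand, middle exon length and both intron lengths matched a GENCODE mouse transcript, and 162 trios on 124 middle exons did. The inclusion database labels 18 of them as cassette and 144 as constitutive. A further 8 trios inside Gria1, Gria3 and Gria4 matched no transcript in this way and were not counted as members.

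The study deleted exon 4 of Ptbp2, which encodes an RNA-binding regulator of splicing in developing neurons. Whole brain at embryonic day 18 (E18) came from PTBP2 Nestin-KO embryos (NesKO), homozygous for the floxed Ptbp2 allele with Cre under the nestin promoter, and from wild-type littermates, and cortex at postnatal day 1 (P1) came from a PTBP2 Emx-KO animal (EmxKO), with Cre under the Emx1 promoter, and a wild-type littermate. All were on a Mixed C56Bl/6:129S2 background, and each of the 4 groups has 1 library, pooled from 2 brains at E18 and made from 1 animal at P1. Every test on reads given here therefore compares libraries and not genotypes, and no difference has a replicate check. Cre under Emx1 acts in the dorsal forebrain lineage, so other cells of the cortex keep Ptbp2. The wild types at E18 and P1 differ in age, in brain region and in library protocol, since the P1 libraries alone were strand specific, and these cannot be told apart.

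Reads on distinct junctions numbered from 49445721 to 85073560 per library. Skipping of Ptbp2 exon 4 was 100% in the NesKO against 0.225% in the E18 wild type, which had 1 skipping read. It was 82.6% in the EmxKO against 31.5%, with 604 skipping reads, in the P1 wild type. The skipping of the targeted exon in this last library goes against its label, and its cause was not tested. It is therefore called the library labelled P1 wild type in what follows, and each P1 or stage difference given here rests on it. Of the hindbrain and midbrain markers measured, Hoxb3, Otx2 and Gata3 were all detected at E18, whereas at P1 Hoxb3 and Gata3 were at 0 in both libraries and Otx2 was at 0 in the EmxKO. The cortical projection neuron gene Tbr1 was present in all 4 libraries.

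AMPA receptors, built from the products of Gria1 to Gria4, carry most fast excitatory transmission in the brain. In each of these genes a pair of neighboring exons called flip and flop encodes alternative versions of the same segment of the ligand-binding domain, and flip receptors generally desensitize more slowly. Flip predominates in the embryonic brain and flop increases after birth. NMDA receptors need the subunit encoded by Grin1, whose N1 exon adds a segment to the extracellular domain and whose C1 exon adds a segment to the cytoplasmic tail with a signal for retention in the endoplasmic reticulum. Kainate receptors contain the products of Grik1 and Grik2, and Grm5 encodes the G-protein coupled receptor mGluR5.

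In all 4 AMPA receptor genes flop lies upstream of flip in the transcript. Each exon has 115 nt, which leaves a remainder of 1 on division by 3, so that inclusion of both exons or of neither shifts the reading frame. The exon sequences are from the GENCODE transcripts and the positions are from the deposited tables, in mouse genome build mm9, where all 8 exons are coding. They are shown because the flip and flop reads are told apart by these bases, and capitals mark the bases that differ between the flip and flop exon of a gene.
Gria1 flop, chr11:57123271-57123385, plus strand: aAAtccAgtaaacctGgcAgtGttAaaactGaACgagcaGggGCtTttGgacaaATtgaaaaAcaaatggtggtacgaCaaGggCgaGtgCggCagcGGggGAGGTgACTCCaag
Gria1 flip, chr11:57124110-57124224, plus strand: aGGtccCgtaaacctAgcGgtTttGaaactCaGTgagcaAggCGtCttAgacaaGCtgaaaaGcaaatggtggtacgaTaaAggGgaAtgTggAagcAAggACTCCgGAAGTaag
Gria2 flop, chr3:80495242-80495356, minus strand: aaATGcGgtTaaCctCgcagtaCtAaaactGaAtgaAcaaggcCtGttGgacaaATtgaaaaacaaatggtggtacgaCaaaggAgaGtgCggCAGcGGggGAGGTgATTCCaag
Gria2 flip, chr3:80494326-80494440, minus strand: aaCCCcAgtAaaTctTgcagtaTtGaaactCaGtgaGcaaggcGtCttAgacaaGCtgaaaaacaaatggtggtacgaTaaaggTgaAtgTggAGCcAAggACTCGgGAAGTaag
Gria3 flop, chrX:39007987-39008101, plus strand: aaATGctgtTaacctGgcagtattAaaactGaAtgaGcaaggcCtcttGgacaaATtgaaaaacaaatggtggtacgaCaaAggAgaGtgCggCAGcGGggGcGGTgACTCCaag
Gria3 flip, chrX:39022678-39022792, plus strand: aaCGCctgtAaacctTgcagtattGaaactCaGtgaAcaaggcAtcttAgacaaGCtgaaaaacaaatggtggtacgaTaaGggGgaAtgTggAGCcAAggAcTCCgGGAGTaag
Gria4 flop, chr9:4432773-4432887, minus strand: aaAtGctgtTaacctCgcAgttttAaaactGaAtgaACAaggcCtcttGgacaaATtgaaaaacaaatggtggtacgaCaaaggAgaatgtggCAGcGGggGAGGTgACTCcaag
Gria4 flip, chr9:4427030-4427144, minus strand: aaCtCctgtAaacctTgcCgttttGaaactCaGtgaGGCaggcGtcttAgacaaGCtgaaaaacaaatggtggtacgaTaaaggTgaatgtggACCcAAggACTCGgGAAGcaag

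Flip and flop of the same gene were identical at 68.7% of bases in Gria1 and Gria2, where 36 bases differ, at 72.2% in Gria3 and at 73.0% in Gria4. Of the 38 codons that lie whole within each exon, 8 encode different residues in Gria1, 9 in Gria2 and Gria3 and 10 in Gria4. The same exon was more alike across genes than the exons of a pair were within a gene. Flip exons of different genes were identical at 87.8 to 92.2% of bases and flop exons at 87.8 to 94.8%. Whether reads were assigned to the wrong AMPA receptor gene was not tested, and a read on a junction also carries bases of a neighboring exon.

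The flip share was taken as the mean of the reads joining flip to the preceding and to the following exon, over its sum with the same mean for flop. Gria2, which encodes the subunit that sets the calcium permeability of AMPA receptors, gave the clearest separation of the libraries. Its flip share was 73.5% in the NesKO (95% Wilson interval, 71.1 to 75.8%, of 1355 reads) and 60.8% in the E18 wild type (58.6 to 62.9%, of 2028 reads). At P1 it was 70.4% in the EmxKO (67.2 to 73.2%, of 882 reads) and 64.7% in the library labelled P1 wild type (62.0 to 67.2%, of 1291 reads). Both knockout libraries were thus above both libraries labelled wild type.

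The E18 difference in Gria2 was 12.8 points (95% Newcombe interval, 9.55 to 15.9). Fisher's exact test of the reads, two-sided, gave an adjusted p of 1.24e-12, with Benjamini-Hochberg adjustment over all 299 pairs of middle exons in the tables that share both outer splice sites. The P1 difference was 5.67 points (1.6 to 9.56), and Fisher's exact test gave p = 0.00705 before adjustment and 0.0897 after adjustment over 312 pairs. A Wald chi-square test of the difference between these log odds ratios, a large-sample and not an exact test, gave p = 0.00690 and an adjusted p of 0.206, so the stages were not separated. Scored on the upstream junctions alone, the E18 difference was 13.3 points, and on the downstream junctions alone it was 12.4 points. The intervals cover counting error only, since several reads may be PCR products of 1 cDNA molecule.

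For Gria1 the flip share was 78.4% in the NesKO (74.9 to 81.6%) and 73.8% in the E18 wild type (70.6 to 76.8%). It was 85.1% in the EmxKO (83.1 to 86.9%) and 84.6% in the library labelled P1 wild type (82.6 to 86.5%). The E18 difference of 4.55 points had an interval from -0.0120 to 9.14 and did not pass the test (Fisher's exact test, adjusted p = 0.399), and the P1 difference was 0.438 points (-2.28 to 3.21). The Gria1 shares separated by stage, and the intervals of the knockout and the other library overlapped at each stage.

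Gria3 was almost entirely flip. Its flip share was 92.7% in the NesKO, 91.7% in the E18 wild type, 95.9% in the EmxKO and 96.2% in the library labelled P1 wild type. The flop exon had a mean of only 11 reads in the NesKO, 19.5 in the E18 wild type, 8.5 in the EmxKO and 15.5 in the library labelled P1 wild type. The difference was 1.04 points at E18 (-4.85 to 6.49) and -0.351 points at P1 (-3.90 to 3.02), and differences inside these intervals could not be shown at this depth.

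Gria4, like Gria2, had a low flip share in both libraries labelled wild type. The values were 60.6% in the NesKO (52.8 to 68.3%, of 148 reads), 62.2% in the E18 wild type (55.5 to 68.5%, of 209 reads), 70.5% in the EmxKO (60.3 to 78.7%, of 91 reads) and 62.3% in the library labelled P1 wild type (54.0 to 70.0%, of 138 reads). The differences were -1.59 points at E18 (-11.6 to 8.69) and 8.17 points at P1 (-4.62 to 19.8; Fisher's exact test, adjusted p = 0.726). With so few reads, a P1 difference as large as that of Gria2 at E18 could not be told from none.

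**Figure D1:**
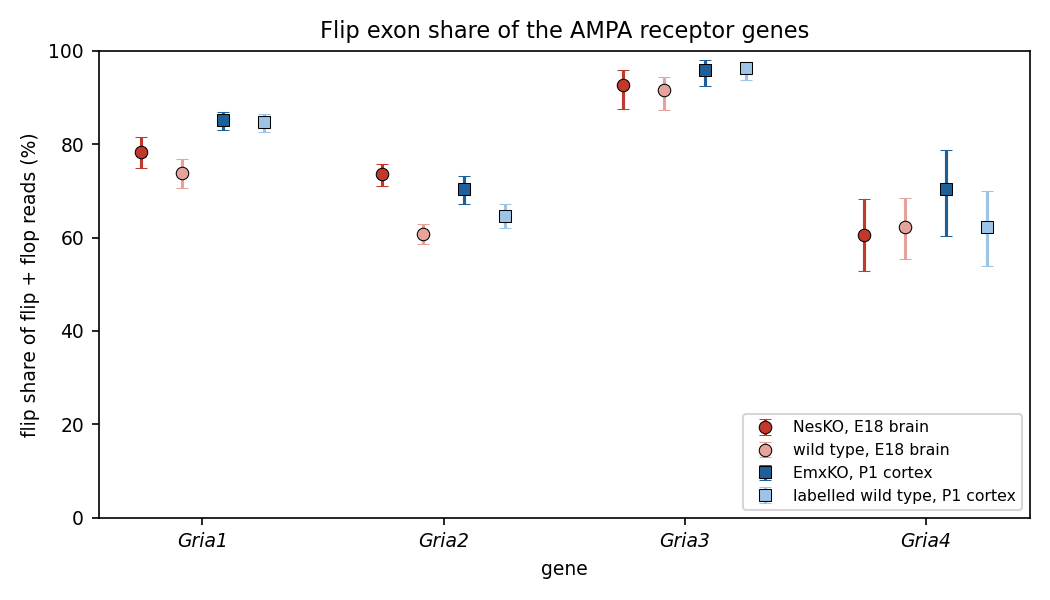
Flip share of the flip and flop reads (percent, vertical axis) in each AMPA receptor gene and library, with bars for the 95% Wilson interval of counting error. In Gria2 the NesKO point at 73.5% stands apart from the E18 wild type at 60.8%, whereas in Gria1 the P1 pair lies above the E18 pair.

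Counted over the 4 genes, 1 pair differed by 10 points or more between the E18 libraries, beside 14.0% of all pairs tested, and this pair was also among the 3.01% that passed the adjusted p of 0.05. No flip and flop pair reached 10 points at P1, where 16.0% of all pairs did and 3.21% also passed the adjusted p. Between the library labelled P1 wild type and the E18 wild type, 1 of the 4 pairs moved by 10 points, beside 29.3% of all pairs, and it passed the adjusted p, beside 18.3%. This was Gria1, whose flip share was 10.8 points higher at P1 (7.21 to 14.5; Fisher's exact test, adjusted p = 6.47e-08). The same comparison gave 3.92 points for Gria2 (0.548 to 7.27; Fisher's exact test, adjusted p = 0.0788), 4.51 points for Gria3 (0.828 to 9.08; Fisher's exact test, adjusted p = 0.0725) and 0.118 points for Gria4 (-10.3 to 10.3). For Gria2 the direction depended on the junctions scored. By upstream junctions its flip share was 51.6% in the library labelled P1 wild type and 55.6% in the E18 wild type. By downstream junctions it was 75.1% and 65.3%. Whether these shifts differ between the 4 genes was not tested.

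The single junctions of Gria2 show where the reads moved. The junction of the preceding exon to flop had 8.94 reads per 1000000 junction reads in the NesKO against 17.9 in the E18 wild type, a ratio of 0.499 (95% counting interval, 0.445 to 0.559). The junction of flop to the following exon had 6.43 and 14.8, a ratio of 0.434 (0.381 to 0.495). The junctions of flip fell less. Their ratios were 0.858 on the side of the preceding exon (0.785 to 0.937) and 0.789 on the side of the following exon (0.730 to 0.853). These ratios are relative to all junction reads of the library, and Gria2 as a whole stood at 0.661 of the wild-type level. That value lies between the flop and the flip ratios. Relative to the gene, flop was thus lower and flip was higher. At P1 the flop ratios were 0.582 and 0.565 and the flip ratios were 0.777 and 0.745, in the same order.

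Gria2 transcripts that join flop directly to flip were also present, although joining both exons shifts the frame. The flop to flip junction had 217 reads in the NesKO, 355 in the E18 wild type, 235 in the EmxKO and 366 in the library labelled P1 wild type. Of the reads leaving flop, this was 40.6% in the NesKO (36.5 to 44.8%) and 31.9% in the E18 wild type (29.2 to 34.7%). It was 53.8% in the EmxKO (49.1 to 58.4%) and 50.5% in the library labelled P1 wild type (46.9 to 54.1%). The difference was 8.69 points at E18 (3.75 to 13.7) and 3.29 points at P1 (-2.63 to 9.17). Relative to the junction reads of the library, however, the flop to flip junction was lower in the NesKO, with a ratio of 0.634 (0.535 to 0.750). When these reads were added to both exons the flip share still differed by 11.1 points at E18.

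The same junction of Gria3 had 20 reads in the NesKO, 14 in the E18 wild type, 10 in the EmxKO and 25 in the library labelled P1 wild type. Of the few reads leaving Gria3 flop, this was 90.9% in the NesKO (72.2 to 97.5%), 60.9% in the E18 wild type (40.8 to 77.8%), 76.9% in the EmxKO (49.7 to 91.8%) and 69.4% in the library labelled P1 wild type (53.1 to 82.0%). These shares were above those of Gria2 in every library, with overlapping intervals at P1. The difference was 30 points at E18 (4.77 to 51.2), where only 2 reads in the NesKO and 9 in the E18 wild type joined flop to the following exon, and 7.48 points at P1 (-22.5 to 29.6). No trio of Gria1 or Gria4 tests it. In Gria2, skipping of both exons was also low. The junction of the preceding to the following exon of Gria2 had at most 15 reads in the NesKO, 27 in the E18 wild type, 24 in the EmxKO and 42 in the library labelled P1 wild type. In Gria1 trios that were not members, this junction had up to 104 reads in the EmxKO and 99 in the library labelled P1 wild type, while the trio of its flop exon lists 2 and 7. In Gria3 it had up to 27 reads in the EmxKO and 47 in the library labelled P1 wild type, while the flop trio lists 5 and 7. The mean reads of Gria3 flop were only 8.5 and 15.5 in these libraries. The tables thus give different read numbers for the same junction in different trios.

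**Figure D2:**
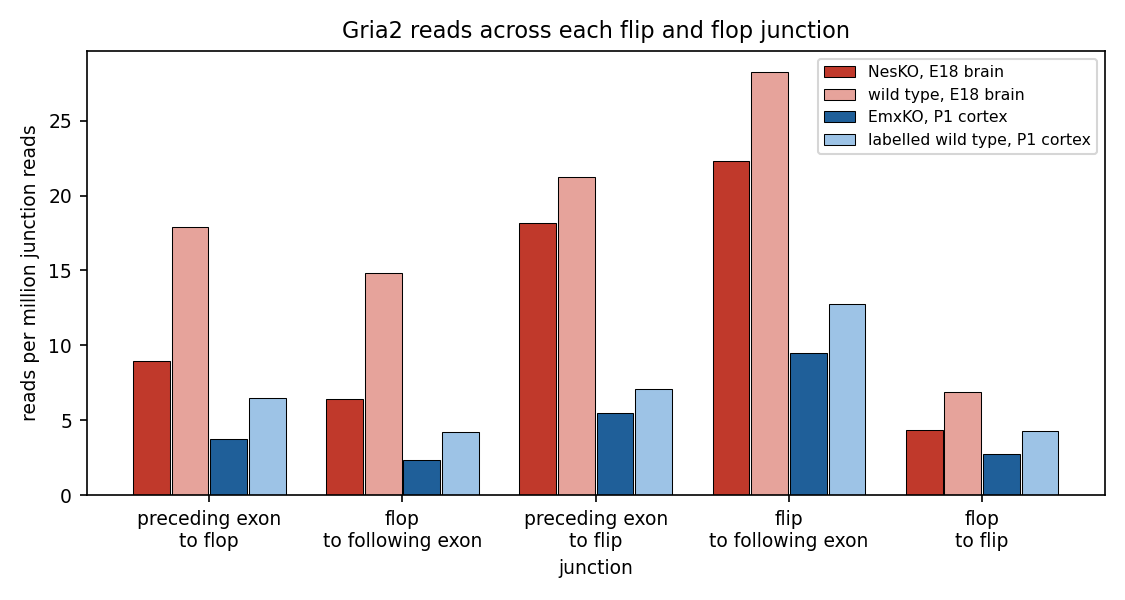
Reads per 1000000 distinct junction reads (vertical axis, from 0) on each of the 5 junctions that enter or leave the Gria2 flip and flop exons, 1 bar per library. At E18 the NesKO bars are 0.499 and 0.434 of the wild type at the flop junctions and 0.858 and 0.789 at the flip junctions.

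A 41-nt exon of Gria2 between the preceding exon and flop (chr3:80495625-80495665), part coding in the annotation, was included at low levels. Its inclusion ratio as deposited, given here in percent as the PSI, was 5.4 in the NesKO, 4.2 in the E18 wild type, 8.0 in the EmxKO and 6.5 in the library labelled P1 wild type. The knockout differences were 1.2 and 1.5 points, and the junction-read intervals of both included 0.

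The deposited PSI of a flop exon is not a flip share, since a trio sets its middle exon against joining the outer exons directly. It also departed from the junction reads of the same trio, which make the same contrast, and the cause was not tested. For Gria2 flop it was 70.5 in the NesKO, 87.7 in the E18 wild type, 53.2 in the EmxKO and 56.9 in the library labelled P1 wild type. The junction reads of the same trio gave 96, 96.7, 91.6 and 91.6 in that order. For Gria1 flop the deposited PSI was 69.6, 83.2, 37.6 and 42.3, and the junction reads gave 100, 99.5, 99 and 96.5. The Gria1 junction values rest on 0, 1, 2 and 7 skipping reads, whereas other trios list up to 21, 31, 104 and 99 for that junction. For the trio that holds Gria2 flip between flop and the following exon, both measures moved alike. The inclusion reads of this trio also come from transcripts that join the preceding exon to flip. Neither measure is thus the share of reads leaving flop that enter flip. Its deposited PSI was 71.6 in the NesKO, 60.5 in the E18 wild type, 78.8 in the EmxKO and 71.1 in the library labelled P1 wild type, with junction-read differences of 14.5 points at E18 (Fisher's exact test over all trios, adjusted p = 9.46e-10) and 6.93 points at P1 (adjusted p = 0.221 by Fisher's exact test).

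Grin1 had the clearest changes outside the AMPA receptor genes. Its N1 exon has 63 nt and encodes 21 residues. Its C1 exon encodes 37 residues and, like N1, keeps the frame. Both are coding, on the minus strand, and their sequences are shown because they were the Grin1 exons that passed the test in a knockout comparison.
Grin1 N1, chr2:25166863-25166925: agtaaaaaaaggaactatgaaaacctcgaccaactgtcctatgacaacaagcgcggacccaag
Grin1 C1, chr2:25149958-25150068: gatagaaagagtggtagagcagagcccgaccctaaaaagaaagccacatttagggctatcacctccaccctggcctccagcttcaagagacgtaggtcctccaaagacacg

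The PSI of N1 was 33.3 in the NesKO, 21.5 in the E18 wild type, 39.4 in the EmxKO and 29.0 in the library labelled P1 wild type. Each knockout library was above the library labelled wild type at its stage, by 11.8 points at E18 and 10.4 points at P1. From junction reads the PSI was 25.8 in the NesKO (22.6 to 29.3), 15.6 in the E18 wild type (13.4 to 18.2), 33.6 in the EmxKO (30.6 to 36.7) and 24.5 in the library labelled P1 wild type (21.4 to 27.9). Fisher's exact test over all 158166 trios tested at E18 gave an adjusted p of 8.43e-04, and over 157988 trios at P1 an adjusted p of 0.0240. The junction-read difference was 10.2 points at E18 (6.06 to 14.3) and 9.07 points at P1 (4.55 to 13.5). The reads of the upstream inclusion junction alone gave 5.66 points at E18 and 7.07 at P1, and those of the downstream junction 13.1 and 10.3, in the same direction. N1 was also higher in the library labelled P1 wild type than at E18, by 7.5 points in the deposited PSI (Fisher's exact test, adjusted p = 0.00164).

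The PSI of C1 was 55.1 in the NesKO, 52.9 in the E18 wild type, 71.1 in the EmxKO and 59.9 in the library labelled P1 wild type. The EmxKO library alone stood apart, by 11.2 points from the library labelled P1 wild type (Fisher's exact test, adjusted p = 0.00129). At E18 the deposited difference was 2.20 points, and the junction reads gave -2.86 points (-10.4 to 4.89). The Wald test of the difference between the stages, again not an exact test, gave p = 0.00147 and an adjusted p of 0.764 over all trios, so a change particular to P1 was not shown. The upstream junction alone gave 9.98 points at P1. The PSI of C1 counts skipping to 1 following splice site only. The 146-nt exon before C1 has a further trio that passes C1 to another site across an intron of 3663 nt. Reads across that intron are outside the PSI, and inclusion of C1 over both sites was not tested.

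A further Grin1 exon of 128 nt (chr2:25153706-25153833), reached 10 points at E18 in the deposited ratio only. Its PSI was 99.5 in the NesKO, 88.5 in the E18 wild type, 99.9 in the EmxKO and 99.8 in the library labelled P1 wild type. The junction reads gave 99.8 in the NesKO, in the E18 wild type and in the library labelled P1 wild type and 100 in the EmxKO, with 2 skipping reads in each E18 library.

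Among the kainate receptor genes no exon passed the adjusted p in a knockout comparison. An 87-nt exon near the 3′ end of Grik1, coding for 29 residues of the cytoplasmic tail, had a PSI of 35.2 in the NesKO, 30.5 in the E18 wild type, 30.6 in the EmxKO and 17.4 in the library labelled P1 wild type. Its P1 difference of 13.2 points came from 39.5 mean inclusion reads in the EmxKO and 18.5 in the library labelled P1 wild type, and did not pass (Fisher's exact test, adjusted p = 0.847; junction-read interval, 3.54 to 24.3). The PSI of the library labelled P1 wild type was 13.1 points below that of the E18 wild type (Fisher's exact test, adjusted p = 0.00207). In the deposited PSI the other libraries lay within 4.70 points of each other. The junction reads gave 48.5 in the NesKO, 43.0 in the E18 wild type, 30 in the EmxKO and 16.4 in the library labelled P1 wild type, so that on this measure both P1 libraries were below both E18 libraries.

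The 45-nt exon of Grik1, which inserts 15 residues in the extracellular domain, had a PSI of 32.7 in the NesKO, 32.6 in the E18 wild type, 21.2 in the EmxKO and 20.2 in the library labelled P1 wild type. Its knockout differences were 0.100 and 1.00 points. The stage difference of -12.4 points between the libraries labelled wild type did not pass (Fisher's exact test, adjusted p = 0.802). Exons of 168, 251 and 226 nt in Grik1 had PSI between 88.7 and 99.9 in all libraries. An 87-nt exon of Grik2 stayed low, at 4.0 in the NesKO, 7.7 in the E18 wild type, 6.1 in the EmxKO and 5.2 in the library labelled P1 wild type. A 218-nt exon of Grik2 had a deposited PSI of 64.1 and 63.9 at E18 and 99.9 in both P1 libraries, while no read skipped it in any library and its mean inclusion reads were 109 to 143.

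In Grm5 the 96-nt exon, whose inclusion makes the mGluR5b form of the receptor with 32 more residues in the tail, had a PSI of 21.1 in the NesKO, 28.9 in the E18 wild type, 25.1 in the EmxKO and 21.9 in the library labelled P1 wild type. The differences of -7.80 points at E18 and 3.20 points at P1 did not pass (Fisher's exact test, adjusted p = 1 at both stages). The junction reads allow a difference from -18.3 to 8.10 points at E18 and from -4.33 to 13 points at P1. An untranslated 147-nt exon near the start of the gene had a PSI of 74.0 in the NesKO, 99.9 in the E18 wild type, 83.0 in the EmxKO and 87.4 in the library labelled P1 wild type, with 2 skipping reads in the NesKO and 0 in the E18 wild type. A 204-nt exon of a non-coding transcript, named after its values were seen, had 17 junction reads in the NesKO, under the minimum of 20. Its PSI was 60.8 in the E18 wild type, 36.8 in the EmxKO and 30 in the library labelled P1 wild type.

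**Figure D3:**
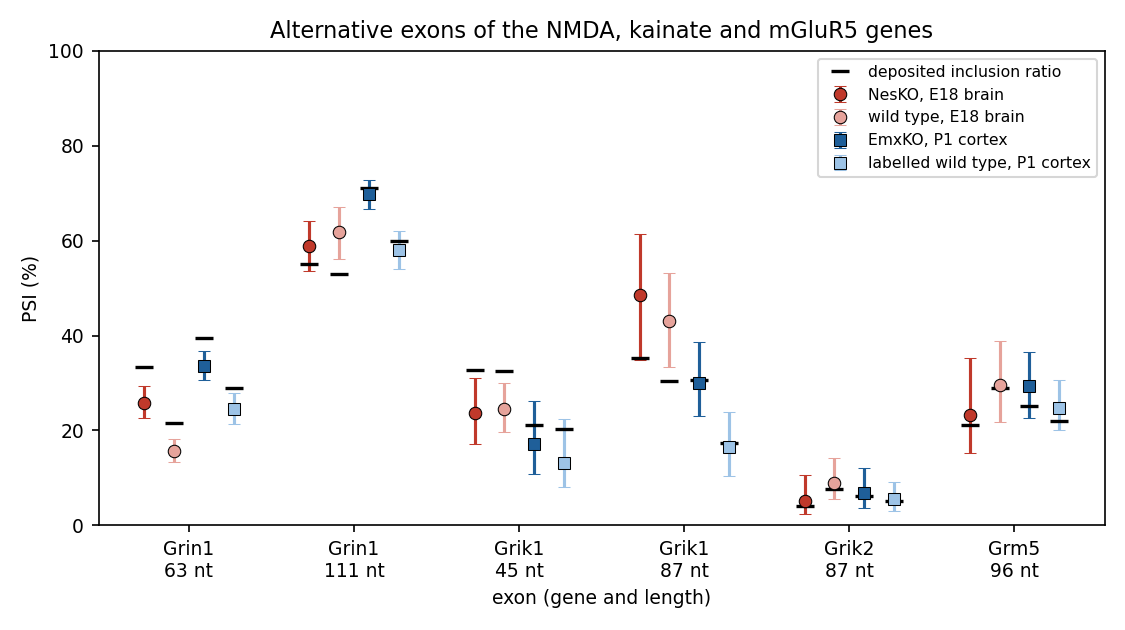
PSI (percent, vertical axis) of 6 alternative exons of Grin1, Grik1, Grik2 and Grm5, by gene and exon length. Colored points are PSI from junction reads with 95% Wilson intervals of counting error, and black dashes are the deposited inclusion ratio. N1 of Grin1, the exon on the left, is higher in each knockout library than in the library labelled wild type at its stage, from 15.6 to 25.8 at E18 and from 24.5 to 33.6 at P1.

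Of the 162 member trios, 157 had 20 junction reads in both E18 libraries and 10 of these differed by 10 PSI points or more, beside 2.42% of all trios tested. Of these, 5 were higher in the NesKO, beside 1.38% of all trios, and 5 were lower, beside 1.04%. Those with an adjusted p below 0.05 were 2, beside 0.157% of all trios. They were N1 of Grin1 and Gria2 flip in its trio between flop and the following exon. That Gria2 trio uses junctions that also enter the Gria2 flip share, so it is not a separate change. Of the 10, the junction reads moved by 10 points in the same 2, and by less than 10 points in 8. These 8 were trios of the flop exon of Gria1, the flop exon of Gria2 (2 trios), the flip exon of Gria3, a 141-nt exon of Gria2, a 177-nt exon of Gria4, the 128-nt exon of Grin1 and the 147-nt exon of Grm5. The 141-nt exon of Gria2 had a deposited PSI of 87.5 in the E18 wild type and 99.8 in the NesKO, yet no read skipped it in either. Over all trios, 41.0% of those that differed by 10 points at E18 also did so by junction reads.

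At P1 158 member trios were tested and 3 differed by 10 points, beside 1.53% of all trios. All 3 were higher in the EmxKO, beside 0.936% of all trios, and 0 were lower, beside 0.595%. They were N1 and C1 of Grin1 and the 87-nt exon of Grik1. The Grin1 exons also had an adjusted p below 0.05, beside 0.205% of all trios. By junction reads alone 2 member trios reached 10 points at E18 and 2 at P1, beside 1.5% and 1.36% of all trios. Between the library labelled P1 wild type and the E18 wild type, 14 of 158 differed by 10 points, beside 4.31% of all trios. Of these, 5 were higher at P1, beside 2.35%, 9 were lower, beside 1.96%, and 3 had an adjusted p below 0.05, beside 0.957%. By junction reads alone 6 differed by 10 points, beside 2.64%. The median absolute difference was 0 points in all 3 comparisons, both for the members and for all trios.

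The other exons were included almost throughout. The 130 member trios that had 20 junction reads in all 4 libraries and met no criterion for naming had a PSI of at least 95.9 in every library. They differed by -1.80 to 3.60 points at E18 and by -2.30 to 3.10 points at P1. A coding 207-nt exon of Gria1 among them (chr11:57051449-57051655), named after its values were seen, passed the adjusted p at P1 with a small difference. Its PSI was 99.8 in the NesKO, 99.9 in the E18 wild type, 99.2 in the EmxKO and 96.8 in the library labelled P1 wild type, with 1, 1, 8 and 29 skipping reads (Fisher's exact test at P1, adjusted p = 0.0189). The 5 trios under the minimum in a library lie in Gria4, Grik2 and Grm5.

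**Figure D4:**
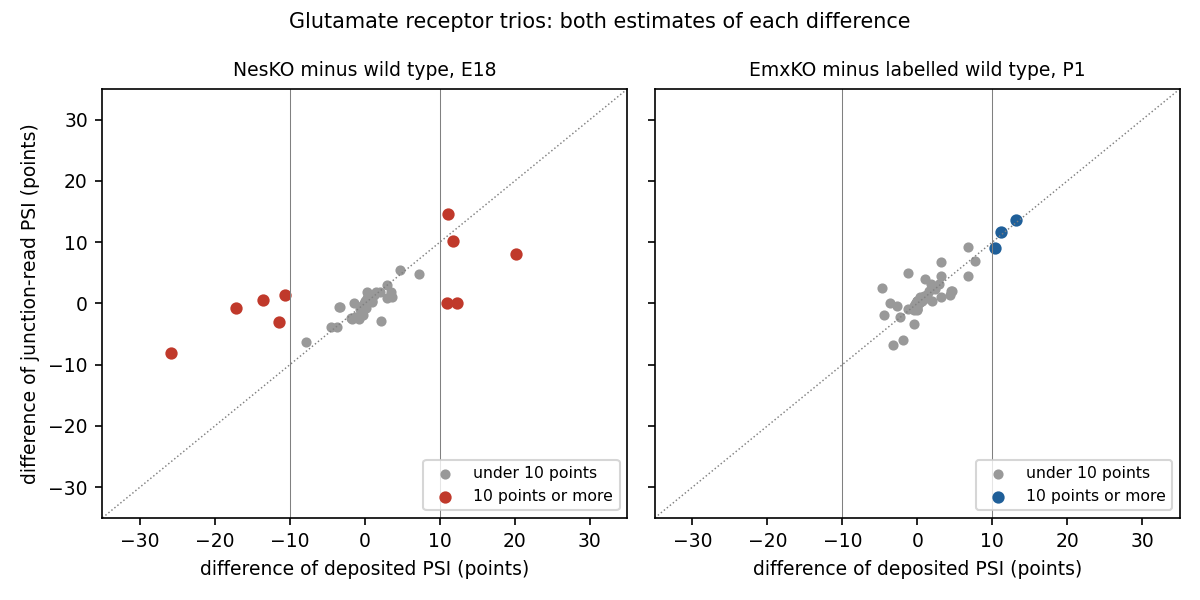
Difference between the knockout library and the library labelled wild type in the deposited PSI (horizontal axis, points) and in the PSI from junction reads (vertical axis, points) for the 157 member trios tested at E18 and the 158 at P1. Colored points differ by 10 points or more in the deposited PSI, grey vertical lines mark 10 points and the dotted line marks equal values. At E18, 8 of the 10 colored points lie below 10 points on the vertical axis in either direction.

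The level of each receptor mRNA was taken as the median read count over its distinct junctions, per 1000000 junction reads, which does not grow with the number of exons. In such bulk samples fewer cells of a type and less RNA per cell cannot be told apart. Gria2 was at 11.8 in the NesKO, 17.9 in the E18 wild type, 7.12 in the EmxKO and 10.8 in the library labelled P1 wild type, a log2 difference of -0.60 at each stage. Gria3 was at 1.62, 2.65, 1.63 and 3.04 in the same order, with log2 differences of -0.71 and -0.90. Gria4 was at 1.48, 2.40, 0.814 and 1.86, with log2 differences of -0.70 and -1.19. These 3 genes were thus lower in both knockout libraries.

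Gria1 went different ways, at 7.0 in the NesKO and 10.3 in the E18 wild type, and at 13 in the EmxKO and 10.5 in the library labelled P1 wild type. Grin1 was at 16.9 in the NesKO, 15.9 in the E18 wild type, 12.5 in the EmxKO and 9.15 in the library labelled P1 wild type. Its log2 difference at E18 was 0.09 by the median and -0.0062 by the sum over junctions, so no direction can be given there. Grik1 was at 1.57, 1.95, 0.955 and 0.846, and Grik2 at 1.74, 1.83, 1.51 and 2.27. Grm5 was low throughout, at 0.324 in the NesKO, 0.858 in the E18 wild type, 0.660 in the EmxKO and 1.18 in the library labelled P1 wild type, from medians of 16, 44, 56 and 100 reads per junction.

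A level at or below 0.5 of that in the library labelled wild type was reached by 1 of the 8 genes at E18, Grm5 at 0.377, beside 1.64% of all genes, and by 1 at P1, Gria4 at 0.438, beside 9.03% of all genes. The median log2 difference over the 8 genes was -0.58 at E18 and -0.59 at P1, and over all genes it was -0.04 and 0.04. Of 6 neuronal marker genes, Snap25 and Syt1 were also at or below 0.5 of the library labelled wild type at E18 and Snap25 at P1. The median log2 difference over the 6 was -0.30 at E18 and -0.11 at P1. In the EmxKO Tubb3 and Rbfox3 were higher, and Snap25, Syt1, Map2 and Stmn2 were lower. Tubb3 was the largest part of the summed level of the 6 in each library. This sum was 457 in the NesKO and 513 in the E18 wild type. It was 698 in the EmxKO and 640 in the library labelled P1 wild type. The microglial genes measured, Aif1 and Csf1r, summed to 3.47, 2.40, 2.23 and 1.47 in that order. The astrocyte gene Gfap was higher in both knockout libraries, at 6.67 in the NesKO, 2.54 in the E18 wild type, 3.10 in the EmxKO and 1.30 in the library labelled P1 wild type, which is 2.63 times the other library at E18 and 2.38 times at P1. It was the only 1 of the 5 astrocyte markers past a 2-fold rise at either stage, and the 5 summed to 19.7, 21.8, 24.9 and 22.4. Gad2, which encodes an enzyme of GABA synthesis in inhibitory neurons, was at 2.93, 3.26, 0.826 and 1.87, or 0.442 of the other library at P1, and the 3 inhibitory neuron markers measured summed to 13.7, 16.2, 11.5 and 11.6. The part of cell composition in the receptor levels and in the exon shares was not tested.

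**Figure D5:**
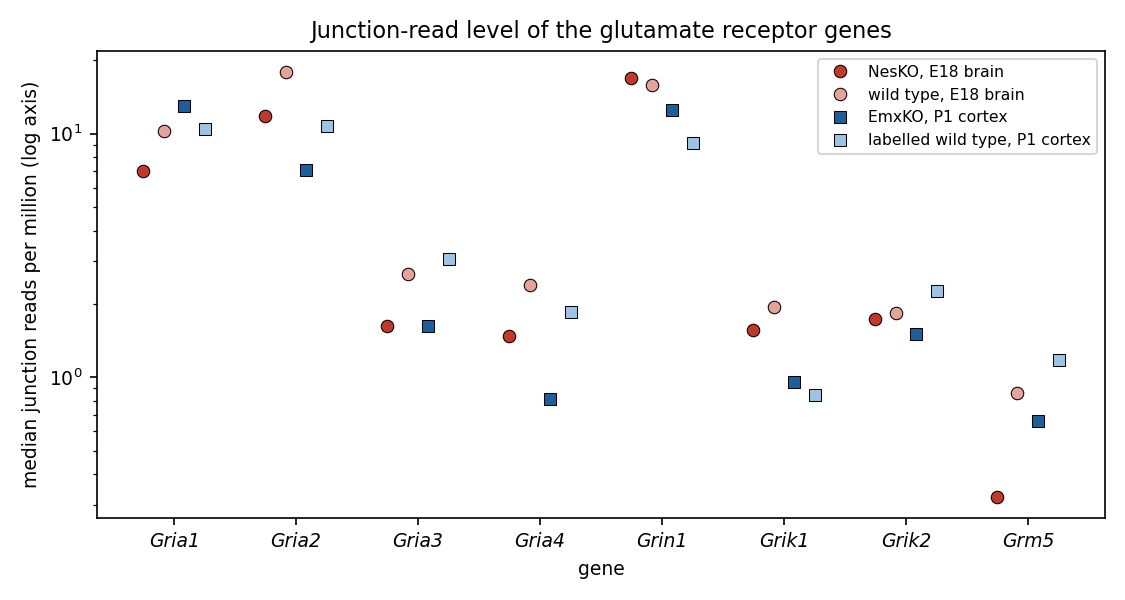
Median reads per junction of the 8 receptor genes, scaled to the junction reads of the library (vertical log axis), 1 point per library and no error bars because each group has 1 library. Gria2, Gria3, Gria4, Grik2 and Grm5 lie lower in each knockout library than in the library labelled wild type at its stage, and Gria1 lies lower at E18 and higher at P1.

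The remaining ionotropic and metabotropic glutamate receptor genes, 18 in number, have 223 trios. At E18 2 of the 176 tested differed by 10 points, beside 2.42% of all trios, and at P1 2 of 172, beside 1.53%. Of these 0 passed the adjusted p, beside 0.157% of all trios at E18 and 0.205% at P1. A further 36 genes mostly encode AMPA, NMDA and kainate receptor auxiliary subunits and postsynaptic scaffolds, but include Nsf, Nptx1, Nptx2, Adar and Adarb1. They have 458 trios. Of these, 7 of 442 tested differed by 10 points at E18, beside 2.42% of all trios, with 0 past the adjusted p. At P1 9 of 444 did, beside 1.53%, and 1 also passed the adjusted p, beside 0.205%. That exon has 51 nt and lies in Shisa7, which encodes an auxiliary membrane protein of receptors at synapses (chr7:4783275-4783325). Its PSI was 38.5 in the NesKO, 39.2 in the E18 wild type, 52.9 in the EmxKO and 65.9 in the library labelled P1 wild type. The EmxKO was thus 13 points below the library labelled P1 wild type (Fisher's exact test, adjusted p = 3.15e-04), while the E18 libraries lay within 1 point of each other.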

How the data were processed

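PolyA+ RNA was sequenced by the authors as paired reads of 100 nt, 1 library per group. Per the labels, CASAVA, TopHat and Cufflinks and the build mm9 were used, and splicing was scored with SpliceTrap. The deposited inclusion ratio is a fraction that the authors' SpliceTrap run estimated for each trio before and after its own correction, and the corrected value in percent was taken as PSI. The deposited junction reads are counts, not normalized. A junction listed in several trios had equal counts in 35.0 to 37.7% of cases, and the highest was used for levels.

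Trios needed 20 junction reads in both libraries. Junction-read PSI, shares, Wilson and Newcombe intervals, Fisher's exact tests with Benjamini-Hochberg adjustment over all trios or exon pairs, and Wald tests with 0.5 added were computed in Python 3.11.15 with scipy 1.17.1, and tested on simulated data. Flip was told from flop by the encoded residues. Named exons had a PSI of 5 to 95 in 1 library or differed by 10 points, and N1 and C1 of Grin1, the 96-nt exon of Grm5 and the 45-nt exon of Grik1 were named in any case. Floors are 3 reads of the total. GENCODE M21 on GRCm38 gave names and exon sequences, and no coordinates were converted. The members, lists and tests were chosen with earlier results of these data known.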

Additional observations from a re-analysis of the deposited data

How the results depend on the processing

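With 1 library per group, differences between animals, litters and dissections have no estimate. The depth of Gria3 flop and of Gria4 leaves intervals of more than 10 points on their flip share differences at E18. No paired analysis was possible because each group has 1 library and the labels carry no replicate numbers, and for the same reason no library could be left out. The flip share differences of Gria2 kept their direction and their side of the threshold at both stages under each junction choice, from 11.1 to 13.3 points at E18 and from 4.63 to 6.41 points at P1. Differences that did not pass turned direction for Gria4 at E18 (3.45 points, downstream junctions), Gria1 at P1 (-0.405, upstream junctions), and Gria3 at P1 (1.01, downstream junctions) and at both stages with flop to flip reads added (-1.60 and 0.180). This last choice and the scoring of named exons on single junctions were made after seeing the data. The count of exon pairs that differed by 10 points, 42 at E18 and 50 at P1, was 23 and 33 with a minimum of 50 reads and 9 and 10 with an adjusted p below 0.05, by fewer pairs or a further criterion. The 10 receptor trios at E18 became 2 with junction reads only, 2 at 20 points and 2 with an adjusted p, and the 3 at P1 became 0 at 20 points. Of 214 alternative values for named trios 185 stayed on their side of 10 points, 22 fell below, 2 rose past it and 5 turned direction. These 5 were Gria1 flop at E18 (0.485 points by junction reads, 0.439 upstream and 0.543 downstream) and the 177-nt exon of Gria4 at E18 (1.44 by junction reads and 0.741 upstream), and the cause was not tested. All 32 alternative gene levels lay within counting error of those reported.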
